A study of Mus musculus with 20 samples.

Results

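The mast cell genes of the heart were followed in RNA sequencing of the heart apex of 20 mice. They were 8 genes, chosen by name as the rows for Cpa3, Cma1, Mcpt4, Tpsb2, Kit, Fcer1a, Ms4a2 and Hdc, out of 25308 genes in the deposited table. The AL group held 9 λS-DH mice whose hearts had amyloid, the LS group 4 λS-DH mice that were not induced and had no deposits, and the Ctrl group 7 DH mice, which carry no human light chain. λS-DH mice carry a human amyloidogenic lambda light chain cDNA inserted at the Ig kappa locus, so that plasma cells secrete it, and every mouse, Ctrl included, was of the DH-LMP2A background, whose plasma cells make no Ig heavy chains. In the study, AL mice had received 1 intravenous injection of the recombinant variable domain of the light chain (rλS-VL), as sonicated fibrils or as soluble protein, whereas LS mice had not, so deposits and injection cannot be told apart in AL against LS. Whether the Ctrl mice sequenced here were injected was not given in the sources used here, and the sample labels gave no age or sex for single mice. The paper calls the Ctrl mice age-matched and states that both sexes were used. The question was whether genes of the mast cell differed between hearts with amyloid, hearts exposed to the soluble light chain and control hearts, in each mouse and in each sequencing run.

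Mast cells are resident granule-bearing cells of connective tissue. In the heart they lie around vessels, between myocytes and under the epicardium. Their granules store proteases, heparin and histamine, which are released when IgE bound to its high-affinity receptor is crosslinked, and their survival depends on Kit, the receptor for stem cell factor. The mice of all 3 groups make no Ig heavy chains, and so no IgE of their own. Of the 8 genes, Cpa3 (carboxypeptidase A3), Cma1 and Mcpt4 (both chymases) and Tpsb2 (a tryptase) encode granule proteases. Kit encodes the growth factor receptor, Fcer1a and Ms4a2 the alpha and beta chains of the high-affinity IgE receptor, and Hdc the enzyme that makes histamine from histidine.

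In GRCm38, all 8 genes are protein coding. Cma1 (chr14:55941451-55944675) and Mcpt4 (chr14:56059629-56062313) lie in the same chymase cluster on the minus strand, and Cpa3 lies on the minus strand at chr3:20215620-20242181. Tpsb2 lies on the plus strand at chr17:25366305-25369098, beside its near copy Tpsab1. Kit is at chr5:75574916-75656722 on the plus strand, and the other three are on the minus strand, Fcer1a at chr1:173221284-173227214, Ms4a2 at chr19:11615523-11623719 and Hdc at chr2:126593667-126619299.

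RefSeq start regions (GRCm38.p6, 250 bases before to 50 bases after the start, 5′ to 3′) were at hand for 7 of the 8 genes, and Tpsb2 had no entry. Those of 3 protease genes and of Fcer1a are printed, the former as examples of the genes that varied together between mice and the latter as that of the called gene. Capitals mark AGATAA or its reverse complement TTATCT, a form of the site of GATA factors. They also mark CATGTG or CACATG, an E-box of the kind that MITF binds. TATAAA, the letters of the TATA box, is marked too at any position and was searched on the strand of the gene only.
Cpa3, chr3:20242132-20242431, minus strand: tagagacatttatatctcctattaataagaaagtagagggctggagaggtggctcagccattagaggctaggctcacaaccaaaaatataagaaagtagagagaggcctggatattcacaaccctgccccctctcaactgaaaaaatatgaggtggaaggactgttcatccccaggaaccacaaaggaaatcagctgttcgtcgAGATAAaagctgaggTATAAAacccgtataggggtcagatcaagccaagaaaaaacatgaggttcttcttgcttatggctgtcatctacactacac
Cma1, chr14:55944626-55944925, minus strand: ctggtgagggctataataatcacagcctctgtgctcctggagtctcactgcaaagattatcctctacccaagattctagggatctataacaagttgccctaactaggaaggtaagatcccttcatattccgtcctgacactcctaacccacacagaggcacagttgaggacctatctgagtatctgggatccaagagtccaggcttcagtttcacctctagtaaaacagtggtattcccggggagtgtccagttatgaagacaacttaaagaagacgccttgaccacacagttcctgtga
Mcpt4, chr14:56062261-56062560, minus strand: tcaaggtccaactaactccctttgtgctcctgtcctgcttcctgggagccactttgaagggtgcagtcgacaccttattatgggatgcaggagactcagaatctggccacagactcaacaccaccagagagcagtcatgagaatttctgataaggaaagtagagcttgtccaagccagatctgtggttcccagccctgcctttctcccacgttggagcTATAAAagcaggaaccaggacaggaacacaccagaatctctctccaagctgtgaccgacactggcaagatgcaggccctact
Fcer1a, chr1:173227180-173227479, minus strand: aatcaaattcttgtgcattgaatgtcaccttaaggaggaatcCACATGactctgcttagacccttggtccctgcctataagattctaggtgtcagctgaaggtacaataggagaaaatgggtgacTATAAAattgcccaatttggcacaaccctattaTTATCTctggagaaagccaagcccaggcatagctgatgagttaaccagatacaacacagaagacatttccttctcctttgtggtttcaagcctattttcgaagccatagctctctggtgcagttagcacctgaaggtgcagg
AGATAA on either strand was in 11.2% of all 32851 start regions of this length, CATGTG on either strand in 14.2% and TATAAA in 8.32%. Counting back from the start, the first base of AGATAA lay at -46 in Cpa3, with TATAAA at -31 and no overlap between both. Mcpt4 had TATAAA at -32, and Cma1 had none of the 3 motifs in this window. Other forms of the GATA site were not searched, so the absence of a mark does not mean the absence of such a site. Fcer1a had TTATCT at -92, TATAAA at -125 and CACATG at -208, and Ms4a2, not printed, had 3 matches to AGATAA or TTATCT. A match is a description of the letters only.

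The libraries of run 1 (15 mice) held 43993277 to 62668146 estimated counts each and those of run 2 (5 mice, 2 AL and 3 Ctrl) 7867642 to 11794615. A floor of 3 counts therefore corresponded to 0.0479 to 0.0682 CPM (counts scaled to library size, with TMM factors except in this floor) in run 1 and to 0.254 to 0.381 CPM in run 2, which covers counting error only. Cardiomyocyte markers summed to between 40594 and 70912 CPM in every mouse, so the tissue matched its label. Xist marks female cells. Within run 1 it ranged from 0.141 to 352 CPM in AL, 0.732 to 205 in LS and 1.91 to 400 in Ctrl. In run 2, Xist was at 0 in both AL mice and held 2 counts in all over the 3 Ctrl mice. Run 2 thus held no mouse high in Xist, and the part of sex in differences between runs was not tested. Summed over 6 markers, mesothelium and epicardium transcripts were higher in AL (17.4 to 262 CPM) than in Ctrl (14.3 to 36.9 CPM) or LS (7.49 to 25.8 CPM), with AL9 at 262 CPM, and 5 of the 6 were called higher in AL against Ctrl. Hepatocyte markers went the other way, with 6 of 6 called lower in AL against Ctrl and sums of 0.22 to 28.5 CPM in AL, 4.54 to 149 CPM in LS and 0.0769 to 259 CPM in Ctrl.

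All 8 genes were found, at low levels. Per kilobase of exon, the level over the 20 mice was highest for Mcpt4, at 1.56 ± 0.80 CPM per kb (mean ± SD). Cma1 (1.16 ± 0.934) and Cpa3 (1.15 ± 0.771) came next, followed by Tpsb2 (0.779 ± 0.538), Kit (0.425 ± 0.183), Hdc (0.390 ± 0.149), Fcer1a (0.132 ± 0.125) and Ms4a2 (0.0175 ± 0.0176). Among neighbours in this order, only the step from Hdc to Fcer1a was larger than the SD of either gene, and Hdc was above Fcer1a in 18 of 20 mice. Mcpt4 was above Cma1 in 14 of 20 mice and Cma1 above Cpa3 in 12 of 20. Chymases, carboxypeptidase and 1 tryptase were thus the best represented mast cell products, in CPM per kb, whereas the IgE receptor chains were near the limit of detection.

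Between groups, mean CPM of 3 protease genes, Cpa3, Cma1 and Tpsb2, and of Fcer1a, Ms4a2 and Hdc was highest in AL. Mcpt4 and Kit showed no such order. A gene was called at an FDR (the Benjamini-Hochberg adjusted p of edgeR's quasi-likelihood test over 14477 genes) under 0.05 with an absolute log2 fold change of at least 0.58. In AL against Ctrl, 1 of 7 tested members, Fcer1a, was called higher, against 4.1% of all genes. Ms4a2 was not tested, being too low in every mouse, and Fcer1a was tested only because of AL mice, so the counts and medians describe the 7 tested genes. In AL against LS, 0 of 7 were called higher, against 5.86% of all genes, with 2 of 7 at an unadjusted p under 0.05. DESeq2 called 1, Hdc, beside 1551 of the 14477 genes in either direction. In LS against Ctrl, 0 of 7 were called in either direction, against 0.0207% of all genes, with 0 at an unadjusted p under 0.05 and 0 by DESeq2. The median log2 fold change of the 7 was 0.89 in AL against Ctrl, 0.74 in AL against LS and -0.22 in LS against Ctrl, against 0.01, 0.01 and 0.00 over all genes. Against Ctrl this median was 0.46 without AL9 and -0.058 with mesothelium and epicardium markers as a covariate. The comparisons share mice and are not independent. In bulk tissue, more mast cells and more RNA per mast cell cannot be told apart.

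**Figure D1:**
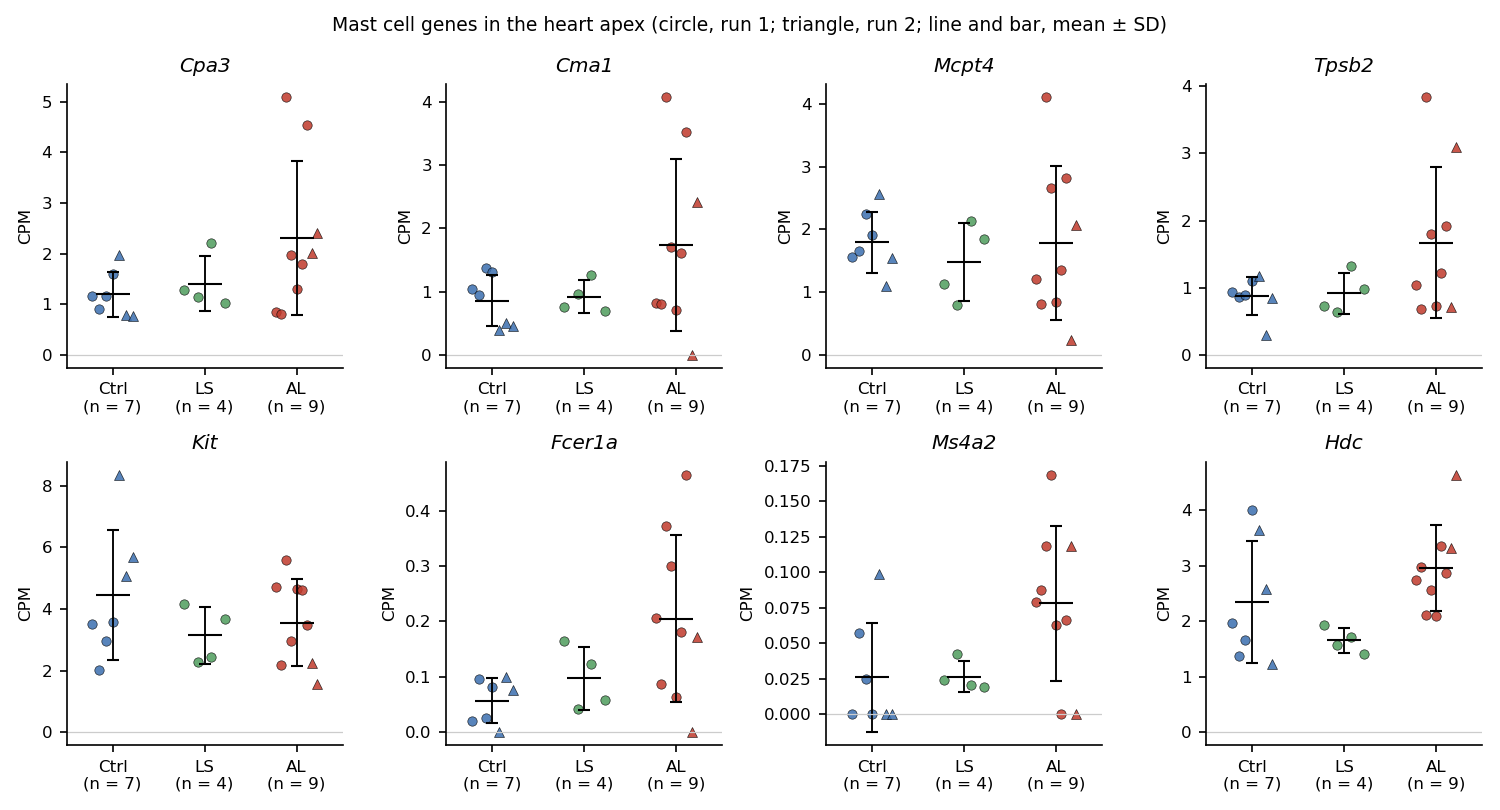
CPM of the 8 mast cell genes in each mouse of the Ctrl, LS and AL groups, with circles for run 1, triangles for run 2 and the mean ± SD of each group as a line and bar; each panel has its own vertical axis. AL3 and AL7 stand above the other mice for Cpa3 (5.08 and 4.54 CPM) and Cma1 (4.07 and 3.52 CPM). Hdc of the 9 AL mice lies above that of the 4 LS mice, a comparison in which Hdc was not called.

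Cpa3, which trims peptides in the granule, ranged in AL from 0.809 to 5.08 CPM with a median of 1.97 CPM. In Ctrl it ranged from 0.769 to 1.97 CPM with a median of 1.16 CPM. The LS mice measured 1.28, 1.14, 2.20 and 1.02 CPM. The groups overlapped, and 4 of 9 AL mice were above all Ctrl mice. The means were 2.31 ± 1.52 CPM in AL (SD, n = 9), 1.20 ± 0.442 CPM in Ctrl (n = 7) and 1.41 ± 0.538 CPM in LS (n = 4). The log2 fold change was 0.94 (SE 0.38) against Ctrl, with an FDR of 0.0761 by edgeR, and 0.73 (SE 0.44) against LS, with an FDR of 0.248. Within run 1 the value against Ctrl was 0.95 and within run 2 it was 0.96, neither passing the test.

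Cma1, a chymase, was at 0 counts in AL8 and ranged up to 4.07 CPM in AL, with a median of 1.61 CPM. Ctrl mice ranged from 0.394 to 1.37 CPM, with a median of 0.951 CPM. LS1 to LS4 measured 0.756, 0.968, 1.26 and 0.693 CPM. Of the 9 AL mice, 5 were above all Ctrl mice and 1, AL8, was below all of them. AL8 was sequenced in run 2, where its 0 counts allow up to the floor of 3 counts. For Cma1 the log2 fold change was 0.89 (SE 0.47) against Ctrl (FDR 0.171, edgeR) and 1.11 (SE 0.56) against LS (FDR 0.157). Leaving out single mice moved the value against Ctrl from 0.46 (FDR 0.515), without AL9, to 1.04 (FDR 0.0565), without AL8. It was 0.70 within run 1 and 1.5 within run 2 against Ctrl, the latter with AL mice at 0 and 2.41 CPM.

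Mcpt4, the other chymase of the set, ranged in AL from 0.237 to 4.10 CPM with a median of 1.35 CPM. Ctrl mice ranged from 1.1 to 2.56 CPM with a median of 1.65 CPM. Mcpt4 in LS measured 1.13, 0.799, 2.14 and 1.85 CPM. AL mice stood on both sides of the controls, 3 above all Ctrl mice and 3 below all of them. The means were 1.79 ± 1.23 CPM in AL and 1.79 ± 0.488 CPM in Ctrl. On the log2 scale the difference was -0.07 (SE 0.40) against Ctrl (FDR 0.922, edgeR) and 0.35 (SE 0.45) against LS (FDR 0.607). In run 2 alone it was -0.48, where AL8 held 2 counts. Mcpt4 thus spread more widely in AL than in Ctrl around nearly equal means.

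Tpsb2, a granule tryptase, ranged in AL from 0.678 to 3.83 CPM with a median of 1.23 CPM. Values in Ctrl ranged from 0.299 to 1.18 CPM with a median of 0.897 CPM, the lowest value resting on 3 counts in Ctrl6. In LS, Tpsb2 measured 0.732, 0.631, 1.32 and 0.982 CPM. Of the 9 AL mice, 5 were above all Ctrl mice and 4 above all LS mice, and the ranges overlapped. The log2 fold change was 0.91 (SE 0.38) against Ctrl (FDR 0.0780, edgeR) and 0.86 (SE 0.45) against LS (FDR 0.168). Within run 1 it was 0.77 against Ctrl and within run 2 it was 1.35. Tpsab1, its near copy, held 13 counts over the 9 AL mice, 4 over LS and 8 over Ctrl, and reads shared by both tryptases may have been split between them by the quantification.

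Fcer1a, the IgE-binding chain, was the called member. It held 121 counts in all, 90 of them in AL. In AL it ranged from 0 to 0.465 CPM with a median of 0.181 CPM, the highest being AL7 (21 counts) and AL3 (22 counts). In Ctrl it ranged from 0 to 0.0996 CPM with a median of 0.0769 CPM. The LS mice measured 0.165, 0.0421, 0.122 and 0.0578 CPM, on 2 to 7 counts. Of the 9 AL mice, 6 were above all Ctrl mice and 6 above all LS mice, with AL8 at 0. The log2 fold change was 1.82 (SE 0.59) against Ctrl (FDR 0.0283, edgeR) and 1.25 (SE 0.59) against LS (FDR 0.130). Fcer1a entered the test through AL mice alone, since the 4 mice at or above the filter of 0.21 CPM (by library size, before TMM) were all AL, so a high value in AL was needed for it to be tested. Within run 1 the log2 fold change was 2.03 against Ctrl (FDR 0.0291). Within run 2, with 2 counts in all over AL and 2 over Ctrl, it was 0.63 (FDR 0.890). The call against Ctrl was lost without Ctrl1 (log2 fold change 1.56, FDR 0.0761) or without Ctrl3 (1.61, FDR 0.0755).

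Ms4a2, the signal-amplifying beta chain, held 42 counts over the 20 mice and did not pass the filter on low counts. It held 0 to 9 counts in AL (32 in all), 1 to 2 in LS and 0 to 3 in Ctrl. In CPM, it was at 0 in 2 of 9 AL and 4 of 7 Ctrl mice, and the LS mice measured 0.0236, 0.0421, 0.0204 and 0.0193 CPM. The means were 0.0779 ± 0.0549 CPM in AL, 0.0263 ± 0.0107 CPM in LS and 0.0258 ± 0.0385 CPM in Ctrl, and the groups overlapped. Without the filter, the log2 fold change of Ms4a2 was 1.67 (SE 0.77) against Ctrl (FDR 0.139, edgeR, 18714 genes) and 1.52 (SE 0.81) against LS (FDR 0.216).

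**Figure D2:**
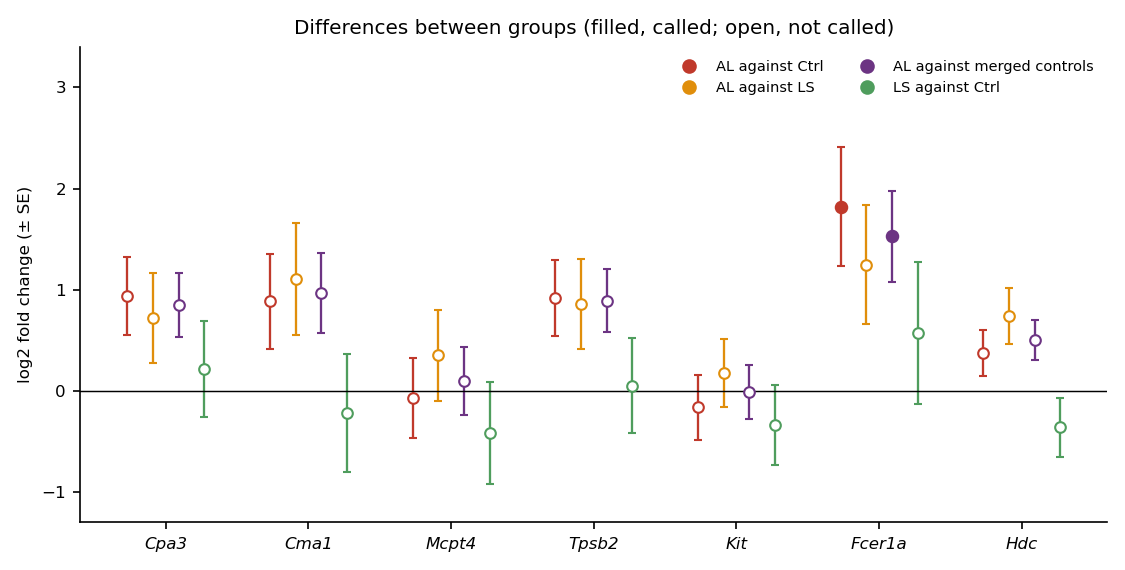
Log2 fold change with its standard error for the 7 tested mast cell genes in 4 comparisons of the heart apex; filled points were called and open points were not. Only Fcer1a is filled, at 1.82 against Ctrl and 1.53 against the merged controls, and the points of LS against Ctrl lie between -0.42 and 0.57.

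Hdc, the enzyme of histamine synthesis, differed from the proteases in that every AL mouse lay above every LS mouse. The share of all genes that separate these groups in this way is not given, so no weight rests on it. Hdc ranged in AL from 2.09 to 4.65 CPM with a median of 2.88 CPM. The LS mice measured 1.94, 1.58, 1.71 and 1.41 CPM. In Ctrl it ranged from 1.23 to 4.01 CPM with a median of 1.97 CPM, and so overlapped with both. The log2 fold change was 0.74 (SE 0.28) against LS (FDR 0.0596, edgeR) and 0.38 (SE 0.23) against Ctrl (FDR 0.232), and within run 1 it was 0.70 against LS (FDR 0.0450). Leaving out Ctrl4 brought Hdc past the threshold against Ctrl (0.68, FDR 0.0213) and against LS (0.68, FDR 0.0302), and leaving out Ctrl2 or Ctrl7 did so against LS (FDR 0.0498 and 0.0419). The highest Hdc values were in AL9 (4.65 CPM), Ctrl4 (4.01 CPM), Ctrl5 (3.64 CPM), AL6 (3.36 CPM) and AL8 (3.32 CPM). Hdc is also made by other myeloid cells, and the summed CPM of 6 neutrophil markers, 2.53 to 32.1 in AL, 2.89 to 6.96 in LS and 1.77 to 20.9 in Ctrl, was highest in AL8 (32.1 CPM), AL9 (21.3 CPM) and Ctrl4 (20.9 CPM), with none of the 6 at 0 throughout. In Ctrl5 and AL6 it was 1.77 and 4.08 CPM, and its part in the Hdc values was not tested.

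Kit, the receptor for stem cell factor, which other cells carry too, passed the test in neither comparison of AL over both runs. It ranged in AL from 1.55 to 5.59 CPM with a median of 3.50 CPM. In Ctrl it ranged from 2.03 to 8.37 CPM with a median of 3.58 CPM. Kit in the LS mice was 4.16, 2.29, 2.44 and 3.68 CPM. On the log2 scale the difference was -0.16 (SE 0.32) against Ctrl (FDR 0.75, edgeR) and 0.18 (SE 0.34) against LS (FDR 0.746). The direction differed between runs, a change that did not pass the test given below. In run 1, Kit was 4.03 ± 1.19 CPM in AL (n = 7) and 3.03 ± 0.717 CPM in Ctrl (n = 4), a log2 fold change of 0.42 (FDR 0.241, edgeR). In run 2, it was 2.25 and 1.55 CPM in the 2 AL mice and 8.37, 5.08 and 5.69 CPM in the 3 Ctrl mice. The log2 fold change there was -1.71 (FDR 0.212, edgeR). The ranges did not overlap, a separation of 2 from 3 mice whose share over all genes is not given. Cpa3 did not overlap in run 2 either, with AL higher.

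**Figure D3:**
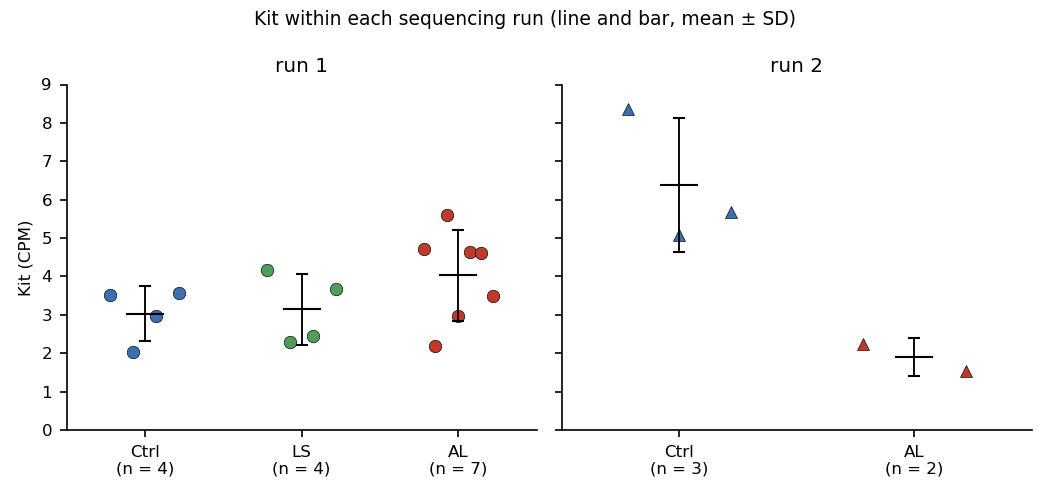
CPM of Kit in each mouse, shown separately for run 1 and run 2, with the mean ± SD of each group as a line and bar. In run 1 the Ctrl, LS and AL mice overlap, and in run 2 the 2 AL mice (2.25 and 1.55 CPM) lie below the 3 Ctrl mice (5.08 to 8.37 CPM).

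A test of whether the difference between AL and Ctrl changed from run 1 to run 2 gave -2.19 (SE 0.48) for Kit, with a p of 0.000353 and an FDR of 0.0506 by edgeR. Of the 7 members, 0 passed an FDR of 0.05 in this test by edgeR, against 0.684% of all genes, and 1, Kit, had an unadjusted p under 0.05. Leaving out single mice gave values between -2.46 and -1.91 for Kit and FDRs between 0.0189 and 0.22, under 0.05 without AL2 (0.0304) or AL8 (0.0189) and highest without AL9 (0.22) or Ctrl5 (0.131). Without AL8 or AL9, the AL arm of run 2 is 1 mouse, which is assumed to vary like the other groups. Among the other members the change between runs lay between -1.36 for Fcer1a and 0.77 for Cma1. The counts behind Kit in run 2 were 18 and 19 in AL and 51 to 85 in Ctrl. The summed CPM of 4 endothelial markers, none at 0, was 519 to 547 in the 3 Ctrl mice of run 2, 357 to 405 in those of run 1, 449 in AL8, 330.4 in AL9 and 325 to 539 in the AL mice of run 1, and its part in the Kit values was not tested. Kitl, which encodes stem cell factor, measured 48.01 CPM in AL8 and 39.8 CPM in AL9, below the other 7 AL mice (100.1 to 133 CPM) and below the 3 Ctrl mice of run 2 (62.8 to 90.0 CPM). It was not called between groups (log2 fold change 0.00, SE 0.17, FDR 0.996 against Ctrl, edgeR).

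Set against LS and Ctrl merged into 1 group of 11 mice, the call asked for a log2 fold change of at least 1. Of the 7 members, 1 was called higher in AL, Fcer1a at 1.53 (SE 0.45, FDR 0.0131, edgeR), against 2.74% of all genes. At a log2 fold change of at least 0.58, 3 were called higher, against 6.25% of all genes. These were Fcer1a, Cpa3 at 0.85 (SE 0.32, FDR 0.0413, edgeR) and Tpsb2 at 0.89 (SE 0.31, FDR 0.0310, edgeR). Leaving out single mice gave FDRs from 0.0185 to 0.118 for Cpa3 and from 0.0163 to 0.103 for Tpsb2, so both could be lost with 1 mouse. For Fcer1a, tested only because of AL mice, the highest was 0.0335. Cma1 (0.97, SE 0.39) and Hdc (0.51, SE 0.20) had FDRs of 0.0593 and 0.0542, and Mcpt4 (0.10) and Kit (-0.01) had FDRs of 0.854 and 0.983. Within run 1, Fcer1a was called (1.62, FDR 0.0134, edgeR), while Cpa3 (0.84, FDR 0.0870) and Tpsb2 (0.79, FDR 0.0617) were not.

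Above the Ctrl median lay 7 of 9 AL mice for Cpa3, 5 of 9 for Cma1 and 6 of 9 for Tpsb2. AL3 and AL7 held the highest Cpa3 and Cma1 values of the series, AL3 the highest Mcpt4 and Tpsb2, and AL1, AL2 and AL5 lay within or below the range of Ctrl for all 4 proteases. Cpa3, for example, was 0.854 CPM in AL1, 0.809 CPM in AL2 and 1.30 CPM in AL5. Without AL3 and AL7, a choice made after their values were seen and which lowers the AL mean by construction, the log2 fold change against Ctrl was 0.39 for Cpa3 (FDR 0.332), 0.38 for Cma1 (FDR 0.572), 0.55 for Tpsb2 (FDR 0.252) and 1.38 for Fcer1a (FDR 0.0921) by edgeR, and no member was called. Mesothelium and epicardium markers summed to 78.2 CPM in AL3, 45.2 CPM in AL7 and 262 CPM in AL9, against 17.4 CPM in AL2, 35.9 CPM in AL1 and 66.2 CPM in AL5, and over 20 mice they gave r = 0.59 with the mean z score of the 4 proteases, a description over mice that share group differences. By the same measure macrophage markers gave r = 0.50, endothelial markers -0.19, hepatocyte markers -0.20 and neutrophil markers 0.0018. With the mean of the 6 markers as a covariate, the log2 fold change against Ctrl was 0.38 for Cpa3, -0.06 for Cma1, -0.07 for Tpsb2, -1.02 for Mcpt4 and 0.92 for Fcer1a, and no member was called. That fit called 411 of the 14477 genes, beside 1130 as reported and 1020 without AL3 and AL7. With hepatocyte markers as a covariate, Fcer1a was at 1.80 with an FDR of 0.149 by edgeR. The markers differ with the groups themselves, and what the mast cell genes owe to the composition of the tissue piece was not tested.

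**Figure D4:**
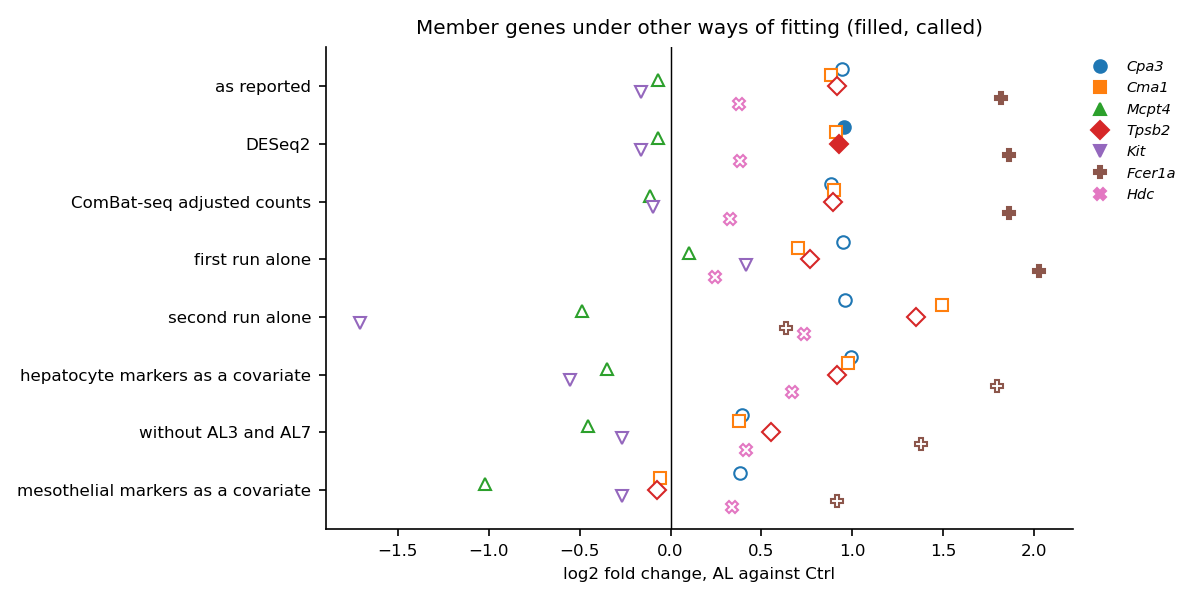
Log2 fold change of AL against Ctrl for the 7 tested mast cell genes (symbols) as reported and under 7 other ways of fitting, with filled symbols where the gene was called. Fcer1a is called in 4 of the 8 rows, Cpa3 and Tpsb2 with DESeq2 only, and Cpa3, Cma1 and Tpsb2 move towards 0 without AL3 and AL7 and with mesothelial markers as a covariate. Over all genes, 21 were called in run 2 alone and 411 with mesothelial markers, beside 1130 as reported.

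The protease genes varied together from mouse to mouse. Over 20 mice, on log2 CPM with the group means and the run difference removed, Mcpt4 and Tpsb2 gave r = 0.85 (Spearman's rho 0.90), Cma1 and Mcpt4 r = 0.84 (rho 0.78), Cpa3 and Tpsb2 r = 0.75 (rho 0.78), Cma1 and Tpsb2 r = 0.69 (rho 0.63), and Cpa3 and Mcpt4 r = 0.63 (rho 0.67). The permutation p over 28 gene pairs was 1e-05 for Mcpt4 and Tpsb2, the smallest that 100000 permutations can give, and 2e-05, 0.000200, 0.000550 and 0.00319 for the others in this order. Adjusted over the 28 pairs, these p were 0.000280, 0.000280, 0.00140, 0.00308 and 0.0128, and those of rho 0.000280, 0.000840, 0.000840, 0.0164 and 0.00935. Cpa3 and Cma1 passed by rho and not by r, at r = 0.48 (permutation p = 0.0329, adjusted 0.115) and rho 0.55 (permutation p = 0.0140, adjusted 0.0491). With the 2 mice farthest from the median of the first gene left out, the r of the 6 protease pairs lay between 0.29 for Cpa3 and Cma1 and 0.84 for Mcpt4 and Tpsb2. Within run 1 (15 mice), all 6 pairs passed by r and by rho, with r from 0.81 to 0.95 and rho from 0.78 to 0.96, and with r from 0.68 to 0.94 after leaving out 2 mice. Among the 9 AL mice alone, 3 of the 6 pairs passed by r and all 6 by rho in exact permutation tests, with r from 0.56 to 0.98 and rho from 0.80 to 0.98.

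Over 20 mice, Fcer1a varied with both chymase genes. For Cma1, r was 0.73 (adjusted permutation p = 0.00140) and rho 0.74 (0.00245). For Mcpt4, r was 0.65 (adjusted permutation p = 0.00859) and rho 0.60 (0.0237). Without the 2 mice farthest from the median, r was 0.67 and 0.46. Neither pair passed by rho when the run difference was kept. Within run 1, Fcer1a passed by r with all 4 proteases, from 0.67 for Cpa3 to 0.72 for Tpsb2, and by rho with all but Cma1. These values rest on 0 to 22 counts of Fcer1a per mouse. Over 20 mice, 7 of 28 pairs passed by r, 5 between proteases and 2 with Fcer1a. No pair with Kit, Ms4a2 or Hdc passed by r or by rho. Kit gave r between -0.05 and 0.25 with the other members, and Hdc between -0.19 and 0.26.

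**Figure D5:**
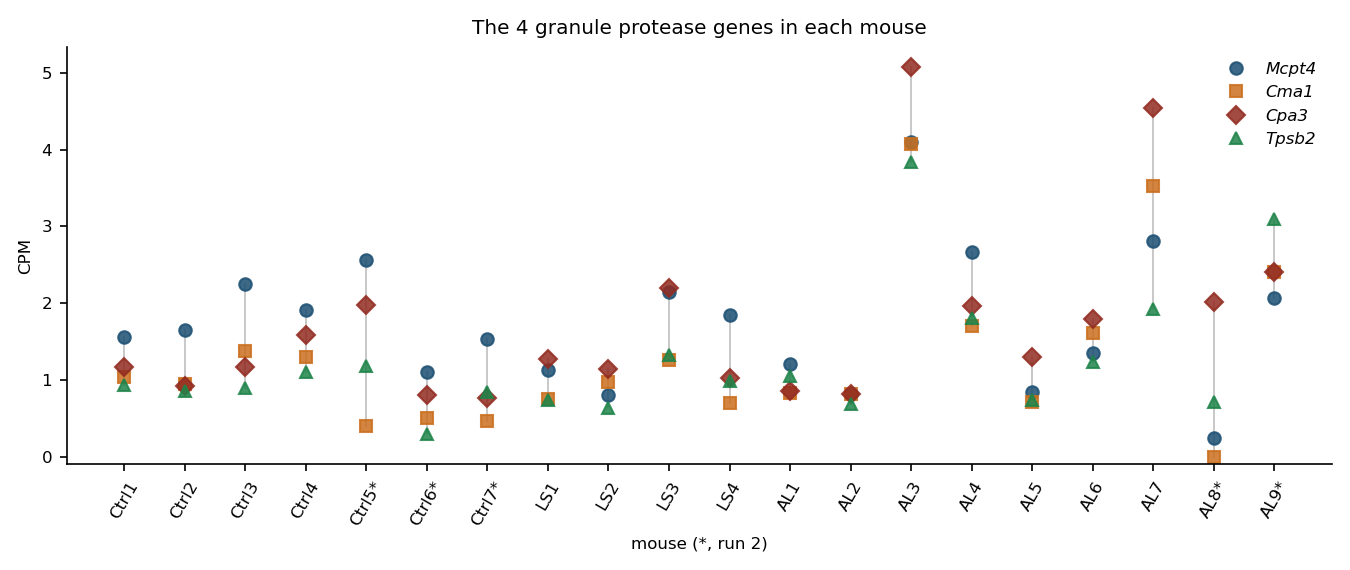
CPM of the 4 protease genes in each mouse, grouped as Ctrl, LS and AL, with an asterisk for run 2 and a grey line joining the lowest and highest gene of a mouse. The 4 genes lie high together in AL3 (3.83 to 5.08 CPM), and are farthest apart relative to their level in AL8, where Cpa3 is 2.02 CPM and Cma1 is 0.

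The genes of the whole table most like the 4 proteases were ranked by Pearson's r with the mean z score of Cpa3, Cma1, Mcpt4 and Tpsb2 over 20 mice, on log2 CPM with the run difference removed. The points share group differences and the ranking picks the extremes of many genes, so no p is given. Mrgprb1, a receptor of the mast cell family of Mas-related receptors, came first at r = 0.84, with 0.523 CPM in AL3 and 0.575 CPM in AL7 against a median of 0.113 CPM. Its r within run 1 was 0.90. The next were Map7d1 (0.76), Rad54b (0.73), Fbrsl1 (0.73), Grik5 (0.73), E2f8 (0.72), Necab3 (0.72), Flywch1 (0.72), Tnip1 (0.71) and Igfbp5 (0.71). Fcer1a ranked 82 with r = 0.62, Hdc ranked 2743 with r = 0.28 and Kit ranked 5502 with r = 0.10.

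Among 52 further genes of mast cell biology in 5 lists, 37 were tested. In AL against Ctrl, 3 were called higher and 1 lower, against 7.81% of all genes called in either direction. In AL against LS, 4 were called higher and 1 lower, against 8.9% of all genes, and in LS against Ctrl none was called by edgeR. The median log2 fold change of the 37 was 0.16 against Ctrl and 0.25 against LS, beside 0.01 over all genes in both.

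Of 9 other granule genes, 3 were tested and 0 were called in any comparison by edgeR. The proteases of mucosal mast cells were nearly unread, with Mcpt1 at 0 counts over AL, 1 over LS and 1 over Ctrl, Mcpt2 at 2 counts over AL and 0 over LS and Ctrl, and Mcpt9 at 0 in every mouse. Of 9 other surface receptors, 6 were tested. Cysltr1, a leukotriene receptor that macrophages carry too, was called higher against LS (5.77 ± 2.80 against 2.32 ± 0.8 CPM, log2 fold change 1.48, FDR 0.00597, edgeR) and was not called against Ctrl (0.47, FDR 0.253). Enpp3 was called lower against LS (-0.61, FDR 0.0361, edgeR). Mrgprb2, the receptor for basic secretagogues, held 22 counts over AL, 10 over LS and 19 over Ctrl and was not tested.

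All 11 signalling partners of the IgE receptor were tested, and 1 was called higher against Ctrl and against LS. This was Lat2, an adaptor used by several leukocyte types, at 2.04 ± 0.596 CPM in AL, 1.35 ± 0.567 CPM in Ctrl and 0.669 ± 0.237 CPM in LS. Its log2 fold change was 0.73 against Ctrl (FDR 0.0192, edgeR) and 1.45 against LS (FDR 0.00137). All AL mice (1.35 to 3.44 CPM) were above all LS mice (0.379 to 0.958 CPM), a separation whose share over all genes is not given. Fcer1g, the gamma chain shared with the Fc receptors of macrophages, was 6.33 ± 1.75 CPM in AL and 4.64 ± 1.11 CPM in Ctrl (0.40, FDR 0.0924, edgeR).

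Of 12 genes for Kit ligand, transcription factors and growth factors, 7 were tested. Tslp, an epithelial cytokine, was called higher against LS (1.27 ± 0.691 against 0.458 ± 0.181 CPM, log2 fold change 1.63, FDR 0.0143, edgeR). It was the one of the 52 genes called against the merged controls (1.03, FDR 0.0304, edgeR). Within run 1, Tslp was 1.27 to 2.01 CPM in AL, 0.283 to 0.672 CPM in LS and 0.436 to 1.02 CPM in Ctrl. In run 2 the direction was the other, with AL8 at 0.237 CPM (2 counts) and AL9 at 0. The 3 Ctrl mice of run 2 held 0.295 to 0.797 CPM, on 3 to 8 counts. Il33 was not called (0.07 against Ctrl, FDR 0.864, and 0.65 against LS, FDR 0.102). The mast cell factor Gata2 showed log2 fold changes of -0.03 against Ctrl and -0.01 against LS. Its mean was 8.51 CPM in AL, 8.25 CPM in LS and 9.08 CPM in Ctrl, above that of each member. Which cells Gata2 was read from was not tested. Il3, Il9 and Il13 were at 0 in every mouse.

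Of 11 genes for amine and eicosanoid mediators, 10 were tested. Hpgds, a prostaglandin D synthase, was called higher against Ctrl (0.84, SE 0.20, FDR 0.00549, edgeR) and against LS (0.68, SE 0.24, FDR 0.0431), at 2.47 ± 0.890 CPM in AL, 1.64 ± 0.802 CPM in Ctrl and 1.28 ± 0.288 CPM in LS. Hrh2, a histamine receptor, was called higher against Ctrl (1.1, SE 0.32, FDR 0.0174, edgeR) but not against LS (0.79, SE 0.36, FDR 0.122). Alox5, which starts leukotriene synthesis, was called lower against Ctrl (-0.80, SE 0.14, FDR 0.000594, edgeR), at 5.48 ± 1.78 CPM in AL and 9.77 ± 1.1 CPM in Ctrl. In LS it was 6.69 ± 1.46 CPM, and it was not called in AL against LS (-0.44, SE 0.16, FDR 0.0577, edgeR). Many of these genes are also read in macrophages, whose 5 markers summed to 70.9 to 297 CPM in AL, 131 to 147 CPM in LS and 87.2 to 171 CPM in Ctrl, with none at 0, and their part was not tested.

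The granule protease genes of basophils and the markers of eosinophils were hardly read. Mcpt8, the defining protease of basophils, held 1 count over the AL mice, 1 over LS and 0 over Ctrl, and Prss34 held 12, 1 and 3. Summed over the 4 basophil markers, the range was 1.05 to 4.91 CPM in AL, 0.799 to 1.56 CPM in LS and 0.598 to 1.84 CPM in Ctrl, and none was at 0 throughout. Nearly all of this sum was Il3ra, an interleukin receptor chain that other cells carry too, at 2.04 ± 1.16 CPM in AL, 0.997 ± 0.371 CPM in LS and 1.38 ± 0.478 CPM in Ctrl, which was not called (FDR 0.186 against Ctrl and 0.0942 against LS, edgeR). The 5 eosinophil markers summed to at most 0.253 CPM in any AL mouse, 0.154 CPM in LS and 0.249 CPM in Ctrl, with Epx at 0 in all 20 mice. Ptprc, carried by all leukocytes, was called higher against LS (0.68, FDR 0.00338, edgeR) but not against Ctrl (0.18, FDR 0.293).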

How the data were processed

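The heart apex of 20 mice was sequenced from polyA RNA with stranded libraries in 2 runs. Per the labels and the study's methods, the authors ran nf-core/rnaseq (STAR alignment to GRCm38, then Salmon) and deposited 1 table of estimated counts per gene, without normalization. Of these values 14.2% were not whole, and they were rounded here. Columns were assigned to mice through the library names in the labels.

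Genes were filtered with filterByExpr (minimum count 10, by 3 groups), which kept 14477 genes, scaled by TMM and tested with glmQLFit and glmQLFTest of edgeR 4.0.16 in R 4.3.3, with group and run in the model. The fit was also run on simulated data, with changes placed only in genes of higher counts than most mice held for Fcer1a. That run therefore does not cover calls at the depth of Fcer1a. SEs were derived from the F statistic, p-values are two-sided, and the spread is that between mice. Correlations used log2 CPM (prior count 2) and permutation tests (100000 resamples). Exon lengths and coordinates came from the GENCODE annotation of GRCm38, and CPM per kb divides by the merged exons. DESeq2 1.42.0 and ComBat-seq (sva 3.50.0) were alternatives, beside other filters, size factors, covariates, single runs and leaving out each mouse. The 8 genes and the further lists were chosen with earlier results of these data known. All 8 are named, with every called gene of the lists, Tpsab1, Mrgprb2, Kitl, Il33 and Fcer1g whatever their values, and the 10 genes most like the proteases. Other genes were chosen as checks or after their values were seen.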

Additional observations from a re-analysis of the deposited data

Results flagged for a closer look

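A sample far from the others of its group was looked for in 24 sets of values (8 genes in 3 groups) with Dixon's criterion, which flags about 1 in 20 sets by chance, and 2 were found. Tpsb2 was 0.299 CPM in Ctrl6, on 3 counts in run 2, the lowest of the 7 Ctrl mice, with the nearest at 0.845 CPM. Hdc was 4.65 CPM in AL9, on 54 counts, the highest of the 9 AL mice, with the nearest at 3.36 CPM.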

How the results depend on the processing

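The number of members called changed with the fit. In AL against Ctrl it was 1 as reported, 3 with DESeq2, and 0 with at least 10 counts required in every mouse (which left 2 members), with run 2 alone, with the replicate number as a block, with hepatocyte or mesothelial markers as a covariate and without AL3 and AL7, and leaving out single mice gave 0 to 3. In AL against LS it was 0 as reported and 1, Hdc, with at least 10 counts in every mouse, DESeq2, run 1 alone, hepatocyte markers or only the 2 groups compared, and 0 to 1 without single mice. Against the merged controls it was 1 as reported, 3 at an FDR under 0.05 with any log2 fold change or with at least 0.58, 0 with at least 10 counts in every mouse, run 2 alone, either marker covariate or without AL3 and AL7, and 1 to 2 without single mice. In the test between runs it was 0, and 0 to 1 without single mice. In LS against Ctrl it was 0 in every alternative run. The number of all genes called moved as well. In AL against Ctrl it was 1130 of 14477 genes as reported, 1261 with DESeq2, 21 in run 2 alone and 851 with the replicate block. It was 1076 with hepatocyte markers, 411 with mesothelial markers, 1020 without AL3 and AL7, and 587 of 11232 with at least 10 counts. The 0 of run 2 alone thus goes with few calls over the whole table. In AL against LS, 1288 genes were called as reported, 1551 with DESeq2, 1649 in run 1 alone and 1208 with hepatocyte markers. It was 1373 with only the 2 groups compared and 878 of 11232 with at least 10 counts. Against the merged controls, 707 genes were called as reported and 21 in run 2 alone. It was 561 with hepatocyte markers, 264 with mesothelial markers, 633 without AL3 and AL7, and 138 of 11232 with at least 10 counts. DESeq2 called Cpa3 (0.95, FDR 0.0418) and Tpsb2 (0.93, FDR 0.0470) against Ctrl. Without AL1 or AL2, Cpa3 was called against Ctrl (FDR 0.0464 and 0.0422), without AL2 or AL8, Tpsb2 (FDR 0.0485 and 0.0459), and without AL1, AL2, AL5 or AL8, Cma1 against the merged controls (FDR 0.0429, 0.0399, 0.0372 and 0.0140). The median of the members against Ctrl, 0.89 as reported, was 0.42 with the replicate block, 0.39 without AL3 and AL7, -0.058 with mesothelial markers and 0.46 to 1.00 without single mice, the lowest without AL9. In LS against Ctrl, -0.22 as reported, it was -0.0028 without Ctrl4. The numbers of pairs passing by r among the correlations were 6 to 10 in all alternatives.

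Replicate numbers did not pair the mice: same-numbered mice of 2 groups correlated at -0.15 to 0.23 in 15 pairs, with 3 over 0.1. With the replicate block, Fcer1a was at 1.90 against Ctrl (FDR 0.0730) and 1.54 against the merged controls (FDR 0.0445), Mcpt4 at 0.0058 and Kit at 0.32 against Ctrl, Tpsb2 at -0.16 and Kit at 0.058 in LS against Ctrl, and Kit at 0.30 against the merged controls. The test between runs could not be fitted with the block.

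Direction changed in 37 values of single genes and held in 377 others on the same side of the threshold, and the cause was not tested. Against Ctrl, Mcpt4 was 0.017 without the run term, 0.10 in run 1 and -0.29 to 0.13 without single mice, Kit 0.42 in run 1 and -0.37 to 0.11 without single mice, and Cma1 and Tpsb2 -0.058 and -0.074 with mesothelial markers. Against LS, Mcpt4 was -0.12 without AL3 and AL7 and -0.57 with mesothelial markers, Tpsb2 -0.17 with mesothelial markers and Kit -0.19 with hepatocyte markers. In LS against Ctrl, Cma1 was 0.028 without the run term, Tpsb2 -0.050 in run 1 and -0.051 with only those groups, Kit 0.047 in both, and without single mice Cpa3 ran from -0.081 to 0.34 and Tpsb2 from -0.17 to 0.20. Against the merged controls, Mcpt4 was -0.48 in run 2, -0.17 with hepatocyte markers, -0.33 without AL3 and AL7, -0.84 with mesothelial markers and -0.15 to 0.25 without single mice, Cma1 and Tpsb2 were -0.024 and -0.11 with mesothelial markers, and Kit was 0.051 with at least 10 counts in every mouse, 0.39 in run 1 and -0.12 to 0.19 without single mice. Between runs, without single mice, Cpa3 ran from -0.23 to 0.54, Mcpt4 from -2.95 to 0.15, Tpsb2 from -0.89 to 1.22 and Cma1 from -7.87 to 1.70, the lowest with AL8 at 0 counts as the one AL mouse of run 2, so that it is no bound. The depth of run 2 limits Fcer1a and Ms4a2 most, since its floor of 0.254 to 0.381 CPM lies above most of their values. The alternatives without AL3 and AL7, with mesothelial markers and, for correlations, with run 1 alone were chosen after seeing the data.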
